A study of Saccharomyces cerevisiae with 144 samples.

Results

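Newly made and total RNA of the 7 hexose transporter genes HXT1 (YHR094C), HXT2 (YMR011W), HXT3 (YDR345C), HXT4 (YHR092C), HXT5 (YHR096C), HXT6 (YDR343C) and HXT7 (YDR342C) were followed in Saccharomyces cerevisiae. The genes were found by these identifiers among the 6465 genes counted, and the set was chosen by the level of HXT7 RNA in the strain whose Bdf1 lacks the ET domain (ΔET) after depletion, so the values of all 7 genes in the ΔET libraries are given as a description with no test. The rule has no threshold on the values. Of the 7 members, 5 had a mean of at least 5 T>C reads over all libraries and were tested on newly made RNA (5014 genes in all), and all 7 were tested on total reads (6045 genes in all). HXT5 and HXT6 did not pass the first filter and are described by their total reads.

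The study asked which domains of Bdf1, a yeast BET protein that binds acetylated histones, are needed for transcription. All 23 strains carried the auxin receptor OsTIR1 under the GPD1 promoter (pGPD1-OsTIR1:HIS3) and degron tags on both endogenous BET proteins (BDF2-3xV5-mAID::KanMX and BDF1-3xV5-mAID::URA3). The strain with no more than these alleles is called Bdf1/2-AID. The other 22 held an additional copy of BDF1 integrated at TRP1 under the BDF1 promoter, which was unmodified in WT (pMD28:TRP1) and mutated or deleted in a domain in the other 21: the bromodomains (BD1, BD2), motif B, the basic interaction domain (BID), the extra-terminal domain (ET), the phosphorylation sites near either end (NPS, CPS) or the disordered regions (IDRs), where Δ marks a deletion and m a mutation. Cells in glucose medium (YPD) received 1 mM IAA, which triggers degradation of the tagged proteins, or DMSO alone for 25 min, and then 5 mM 4-thiouracil for 4 min. Each strain had 3 libraries per treatment except WT, which had 6 (replicates A to F). The strain series thus holds the variant copy in every sample of a variant, in DMSO together with endogenous Bdf1/2 and in IAA largely without it. Replicates were described as biological. Because the samples are whole cultures, fewer cells with a transcript and less transcript per cell cannot be told apart.

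Hexose transporters of the HXT family carry glucose and related sugars across the plasma membrane by facilitated diffusion, and budding yeast chooses among them by the glucose it meets. Hxt1 and Hxt3 are low-affinity transporters, and HXT1 in particular is induced when glucose is plentiful. Hxt2 and Hxt4 have a higher affinity and are induced when glucose is scarce, Hxt6 and Hxt7 are high-affinity transporters repressed by glucose, and HXT5 is known from slowly growing and starved cells. The sensors Snf3 and Rgt2 at the membrane relieve the repressor Rgt1, which holds HXT genes off together with Std1 or Mth1 and the Ssn6-Tup1 corepressor, whereas Mig1 under control of the kinase Snf1 represses the high-affinity genes in glucose.

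HXT6 and HXT7 are neighbours on the minus strand of chromosome IV, and their coding sequences differed at 3 of 1713 positions in build R64. Because this near-identity decides how far their reads can be separated, the stretch that holds all 3 differences is shown for each gene, 5′ to 3′ on the coding strand, as coding positions 1620 to 1689, with the differing bases in capitals (HXT6 at chrIV:1159632-1159701, HXT7 at chrIV:1154240-1154309).
HXT6: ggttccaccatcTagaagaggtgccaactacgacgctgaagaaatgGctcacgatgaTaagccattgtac
HXT7: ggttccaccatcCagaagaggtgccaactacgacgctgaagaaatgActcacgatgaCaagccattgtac
Counted from 1 at the A of the start codon, the changes from HXT6 to HXT7 are T1632C, G1666A and T1677C, and the first 1631 coding bases are the same in both genes. Reads were counted over the open reading frame with a 250-base extension at its 3′ end (chrIV:1159358-1161320 for HXT6 and chrIV:1153966-1155928 for HXT7), and the 2 extensions agreed at 63.2% of aligned positions. The libraries are 3′ mRNA libraries, whose reads start near the end of the transcript, where the extensions differ. Reads recorded as mapping to several places made up 0.0801% of HXT6 reads and 0.167% of HXT7 reads. How many reads of one gene were placed on the other was not tested, so the split between HXT6 and HXT7 is uncertain. No other pair of members was more than 81.9% identical over the coding sequence, the value of HXT1 and HXT3.

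The HXT genes also differed in what lies before them. Rgt1 binds the sequence CGGANNA, and this motif was searched on both strands in the 500 bases before each start codon, where overlapping matches were counted separately. HXT3 held 5 matches and HXT1 held 4, against 2 in HXT2, 2 in HXT4, 1 in HXT5, 1 in HXT6 and 0 in HXT7. Of 5995 upstream windows of this length, 42.0% held at least 1 match, 11.6% at least 2, 0.550% at least 4 and 0.133% at least 5. The 3 stretches show the contrast between the genes at the ends of this order, with the matches to CGGANNA in capitals (on the other strand they read TNNTCCG). HXT1 is given from -490 to -380 before the start codon (chrVIII:293005-293115), HXT3 from -450 to -300 (chrIV:1164960-1165110) and HXT7 from -450 to -300 (chrIV:1156228-1156378), all on the minus strand and written 5′ to 3′ toward the gene.
HXT1: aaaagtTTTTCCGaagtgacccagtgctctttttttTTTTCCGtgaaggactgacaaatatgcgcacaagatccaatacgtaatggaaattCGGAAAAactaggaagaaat
HXT3: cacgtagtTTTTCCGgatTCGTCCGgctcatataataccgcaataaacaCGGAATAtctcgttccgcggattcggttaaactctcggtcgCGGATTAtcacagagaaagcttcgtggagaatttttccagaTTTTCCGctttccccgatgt
HXT7: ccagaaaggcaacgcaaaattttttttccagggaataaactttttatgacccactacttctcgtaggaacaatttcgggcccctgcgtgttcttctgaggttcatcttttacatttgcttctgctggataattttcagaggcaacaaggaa
A match is a run of letters and not a site shown to be bound here, and the absence of a match in HXT7 says only that these letters are not in this window.

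The libraries held 4089393 to 21384793 reads assigned to genes (median 8054872), of which 0.739% to 5.60% carried at least 2 T>C conversions, the mark of 4-thiouracil incorporated during the label. Levels are given as T>C reads or total reads per 10M total reads of the library (M stands for 1000000), so they are shares of a library and not amounts per cell. BDF1 total reads were 963 to 1400.1 per 10M in Bdf1/2-AID and 1535 to 4798 in the 22 strains with the additional copy. The 6 WT libraries of each treatment fell into 2 sets. RPL41A, a ribosomal protein gene, took 13.4% to 19.9% of the reads in WT replicates A to C and 3.68% to 4.39% in D to F, and its ranges in mBD1/2 (12.02% to 20.9%) and mET(4) (8.64% to 20.1%) overlapped the former set and not the latter. On IAA the WT T>C values of all 5 tested members were lower in A to C than in D to F without overlap, by 1.65-fold for HXT1, 1.72-fold for HXT3, 2.74-fold for HXT2, 2.83-fold for HXT4 and 2.94-fold for HXT7. By library number WT A to C came directly before mET(4) and mBD1/2, and WT D to F directly before mNPS and mCPS. The labels do not say whether the sets were separate experiments, and what separates them was not tested. Fits on all 6 WT libraries pool the 2 sets. Comparisons of mET(4), mBD1/2 and ΔBD1/2 with WT are given with each set alone where this changes a call, and those of the other variants as counts. In each fit the error of a gene came from the spread between replicates of the groups compared, moderated toward the spread shared over genes. Of the libraries, 0 pairs held identical values.

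The members differed widely in how much of their RNA was newly made. Over all libraries 19.1% of the HXT1 reads carried at least 2 conversions, a share above that of 95.5% of the 5014 genes tested. HXT4 (9.14%), HXT3 (7.26%) and HXT2 (7.10%) lay near the median gene (8.94%). HXT7 had a share of 2.24% and HXT6 of 1.92%, and HXT5 had the lowest at 0.850%. The share depends on the number of T positions under the reads as well as on the age of the RNA, and the HXT1 region holds 680 T positions against 699 in HXT7. The share of T positions converted gave HXT1 1.17%, HXT7 0.155% and the median gene 0.664%. With the DMSO libraries of each strain pooled, the HXT1 share ran from 6.79% to 29.2% and the HXT7 share from 0.700% to 5.35%. The ranges of these 2 genes over the strains thus did not overlap in DMSO. HXT5 gave 86 T>C reads in all and none in 96 libraries, and HXT6 gave 168 and none in 65, which sets the limit on what can be said of their synthesis.

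In Bdf1/2-AID, where no other copy of BDF1 is present, newly made RNA of the 5 measured HXT genes showed no change that passed the test on IAA while most genes fell. The low-affinity transporter gene HXT1 had 109.8, 82.2 and 95.6 T>C reads per 10M in the 3 DMSO libraries and 80.8, 70.1 and 104 on IAA. HXT3 had 73.5, 66.3 and 95.6 in DMSO and 79.2, 71.9 and 91.9 on IAA. Both sets of libraries overlapped for each gene. HXT2 had 213, 183 and 189.6 in DMSO and 179, 139 and 186 on IAA, and HXT4 had 14.3, 17.7 and 11.7 and 3.17, 9.76 and 9.97. The 3 HXT4 values on IAA were below all 3 in DMSO, whereas those of HXT2 overlapped. The high-affinity gene HXT7 had 45.8, 61.9 and 31.9 in DMSO and 45.9, 25.7 and 60.9 on IAA, also overlapping.

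The log2 changes on IAA in Bdf1/2-AID (quasi-likelihood test of edgeR, p-values adjusted over 5014 genes by the method of Benjamini and Hochberg) were -0.18 for HXT1 (SE 0.19, adjusted p = 0.387), 0.07 for HXT3 (SE 0.20, adjusted p = 0.742), -0.23 for HXT2 (SE 0.16, adjusted p = 0.173), -0.87 for HXT4 (SE 0.47, adjusted p = 0.0778) and -0.15 for HXT7 (SE 0.25, adjusted p = 0.565). The median gene changed by -1.86. Of the 5 members 0 were called lower and 0 higher, against 84.3% of all tested genes called lower and 0.319% called higher. At an unadjusted p under 0.05 the count was also 0 of 5, and DESeq2 called 0. The approximate 95% interval was -0.56 to 0.21 for HXT1 and -0.65 to 0.34 for HXT7, so a loss as large as that of the median gene lies outside both. These values are relative to library totals. Scaled by size factors, which put the median gene at -0.80, 4 of 5 members, HXT1, HXT2, HXT3 and HXT7, were called higher (0.89, 0.85, 1.14 and 0.92), as they were with TMM factors, which put it at -0.21 (1.49, 1.44, 1.74 and 1.51). The background shifted as well, to 8.80% of genes called higher and 35.9% lower with size factors and 17.5% and 8.72% with TMM factors. HXT4 was above 0 under both, at 0.19 and 0.79, without a call.

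Total reads of the same libraries went up relative to the library for most members. HXT1 total reads per 10M were 417.4, 339.6 and 297 in DMSO and 504, 434 and 573 on IAA. HXT3 had 1048, 983 and 797 in DMSO and 1578, 1421 and 1513 on IAA. All 3 IAA libraries lay above all 3 DMSO libraries for both genes, and likewise for HXT7 (1259, 1817 and 1479.7 against 1977, 1915 and 2456). In the edgeR fit over 6045 genes, HXT3 rose 1.59-fold (log2 0.67, SE 0.11, adjusted p = 3.86e-06), HXT1 1.42-fold (log2 0.50, SE 0.13, adjusted p = 0.0011) and HXT7 1.39-fold (log2 0.48, SE 0.12, adjusted p = 0.000969). HXT5 (0.62, adjusted p = 0.0202), HXT6 (0.54, adjusted p = 0.0489) and HXT2 (0.22, adjusted p = 0.0449) also passed, and HXT4 was at 0.32 (adjusted p = 0.0722). In all 6 of 7 members were called higher and 0 lower, beside 5.34% of all genes called higher, 72.3% called lower and a median gene of -1.06. With size factors or TMM factors 7 of 7 were called higher, beside 34.5% and 30.5% of genes. Without DMSO replicate C 3 of the 7 were called, without DMSO replicate B or IAA replicate C 4, and without any other single library 6. Without IAA replicate A these 6 held HXT4 in place of HXT2, and without IAA replicate B in place of HXT6.

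**Figure D1:**
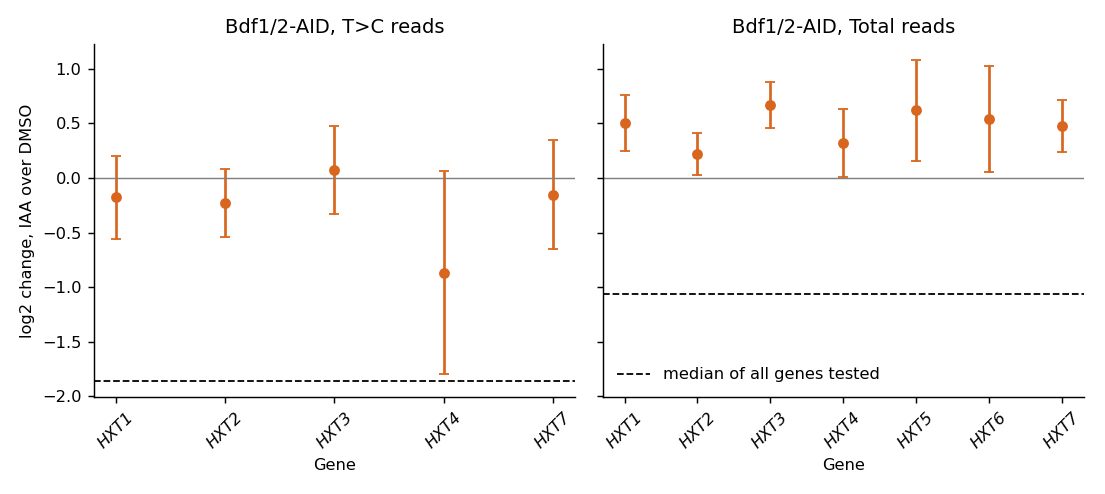
Log2 change on IAA over DMSO in Bdf1/2-AID for each HXT gene, in T>C reads (left, 5 genes) and total reads (right, 7 genes), with 95% intervals from the edgeR fit and the median of all tested genes as a line. The intervals of the T>C changes span 0, with a median gene of -1.86, and the total-read changes lie above 0 with a median gene of -1.06. Values are relative to library totals, and the T>C changes of HXT1, HXT2, HXT4 and HXT7 are above 0 when size factors are used.

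WT, in which an untagged Bdf1 of normal sequence remains after IAA, showed no call among the members. HXT1 T>C reads per 10M ran from 47.0 to 106 with a median of 64.8 in the 6 DMSO libraries and from 49.0 to 94.1 with a median of 68.7 on IAA, and HXT7 from 4.80 to 29.9 with a median of 9.26 and 2.28 to 22.8 with a median of 12.03. The treatments overlapped for both genes. The log2 changes ran from -0.34 (HXT2, adjusted p = 0.574) to 0.04 (HXT1, adjusted p = 0.916), 0 of 5 members were called, and so were 0 of all 5014 genes (0%). At an unadjusted p under 0.05 these counts were 0 of 5 members and 719 of all genes, and DESeq2 called 0 of either. The median gene was at -0.37. With the replicate letter as a block HXT2 was called lower (-0.38, adjusted p = 0.0302), beside 22.98% of all genes called lower and 0.0399% called higher. The letters were not shown to be paired, with same-letter correlations of 0.0032 to 0.057 within A to C and D to F. The change on IAA in Bdf1/2-AID minus that in WT was -0.22 for HXT1 (SE 0.40, adjusted p = 0.655) and -0.14 for HXT7 (SE 0.68, adjusted p = 0.874), with a median gene of -1.45. Of the 5 members 0 were called either way in this interaction, beside 50.2% of genes called lower and 0.120% called higher. At an unadjusted p under 0.05 and with DESeq2 the count was also 0. With TMM factors 2 members, HXT1 and HXT3, were called higher (1.08 and 1.38), beside 4.15% of genes called higher and 1.08% called lower, and HXT1, HXT4 and HXT7 changed sign.

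Across the 23 strains, total reads of the low-affinity transporter genes HXT1 and HXT3 were higher on IAA than in DMSO in the mean of every strain. The log2 difference of strain means ran from 0.13 to 0.80 for HXT1 (median 0.44) and from 0.17 to 0.71 for HXT3 (median 0.43). Of 6045 genes 27 (0.447%) were higher in all 23 strains, and the median gene was higher in 3. With size factors HXT1 and HXT3 were again higher in all 23, as were 4.47% of genes. All IAA libraries lay above all DMSO libraries of the same strain in 14 strains for HXT1 and in 15 for HXT3. Of all genes 0.132% and 0.0827% did so in at least as many strains, and the median gene in 0. These strains include WT, which keeps an untagged Bdf1, where HXT3 total reads were 1413, 1334 and 1158 in DMSO and 1588, 1422 and 1404 on IAA in replicates D to F. In replicates A to C they were 776, 675 and 774 and 843, 788 and 849. In A to C all IAA values lay above all DMSO values, whereas D to F overlapped by 1 DMSO library. A control with DMSO or IAA in cells without degron tags was not analysed here, so an effect of IAA itself cannot be told apart from that of the depletion.

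The other members were less uniform. HXT7 total reads were higher on IAA in 20 of 23 strain means and HXT4 in 19, whereas HXT6 was higher in 12, HXT2 in 6 and HXT5 in 6. In that order 2.42%, 3.36%, 14.4%, 32.9% and 32.9% of genes were higher in at least as many strains. With size factors HXT2 total reads were higher in 15 strains and HXT5 in 12, as for 36.8% and 49.0% of genes. In T>C reads HXT2 was lower on IAA in the mean of all 23 strains (log2 -0.65 to -0.10). The median gene was higher in 2 of 23 with library totals, and the share of genes lower in all 23 was not counted. With size factors HXT2 T>C reads were higher in 8 of 23, as for 25.4% of genes. HXT3 T>C reads were higher in 20 of 23 strains, as for 0.140% of genes, and those of HXT1 and HXT7 in 17 each, as for 0.558%. With size factors HXT3 was higher in 23, HXT1 in 22 and HXT7 in 20, as for 0.0598%, 0.199% and 1.06% of genes.

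**Figure D2:**
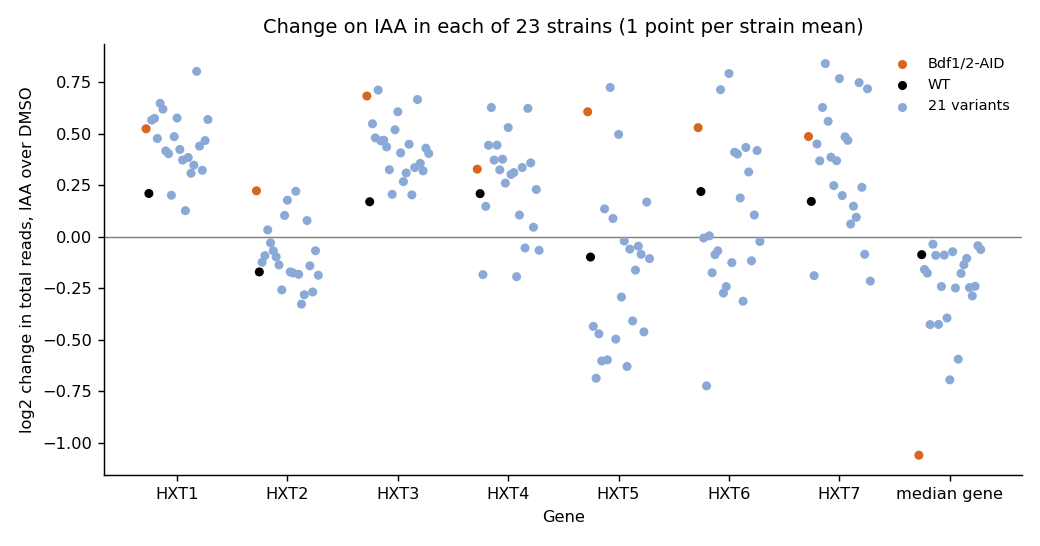
Log2 change in total reads on IAA over DMSO for each HXT gene and for the median gene, with 1 point for the mean of each of 23 strains. All points of HXT1 and HXT3 lie above 0, with library totals as with size factors, and those of HXT2, HXT5 and HXT6 lie on both sides.

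The ΔET strain, whose Bdf1 copy lacks the extra-terminal domain, had the HXT7 values that chose this set. HXT7 T>C reads per 10M were 51.2, 33.5 and 73.1 in DMSO and 51.8, 55.2 and 88.1 on IAA, and total reads were 3193, 1159.7 and 2267 and 3211, 3648 and 3532. The IAA and DMSO libraries overlapped in T>C reads and, with 3193 against 3211, nearly touched in total reads. On IAA all 3 ΔET libraries lay above all 6 WT libraries (6.03, 11.3, 2.28, 12.8, 22.1 and 22.8). The difference of mean log2 T>C values from WT was 2.57 where that of the median gene was -1.76. From DMSO to IAA within ΔET, HXT7 differed by 0.33 and the median gene by -1.32. Against Bdf1/2-AID on IAA, which has no Bdf1 copy, HXT7 differed by 0.60 and its libraries overlapped (45.9, 25.7 and 60.9).

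In T>C reads the other members lay closer to WT in ΔET. Against WT on IAA, HXT3 differed by -0.68, HXT1 by -0.20, HXT2 by 0.02 and HXT4 by 0.06 in T>C reads. HXT3 values were 44.5, 46.3 and 53.0, below those of WT (46.7 to 105 with a median of 82.3) except for an overlap with the lowest WT library. HXT1 values were 52.7, 64.2 and 60.6, within the WT range. In total reads on IAA, HXT4 had 270.7, 278.6 and 205 in ΔET and 78.4, 84.3, 52.4, 176, 167 and 185 in WT, without overlap, a log2 difference of 1.16. HXT5 (-1.17) and HXT6 (-0.97) lay near the median gene (-0.95). HXT6 total reads were 83.6, 61.7 and 40.6 in ΔET and 72.4, 130.5, 132, 110.1, 131 and 143 in WT, so the neighbour of HXT7 lay within or below the WT range.

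Strains not used to choose the set gave tests for HXT7. These tests use the same 6 WT libraries on IAA that the ΔET values were set beside. mET(4), with mutations in the same ET domain, had 22.4, 35.0 and 39.4 HXT7 T>C reads per 10M on IAA, where WT had 6.03, 11.3, 2.28, 12.8, 22.1 and 22.8. The lowest mET(4) value lay below the highest WT value, and the others lay above all of WT. HXT7 was 2.56-fold higher than in WT (log2 change of 1.36, SE 0.46, adjusted p = 0.0141) while the median gene was at -1.35. In DMSO its mean was already 24.9 T>C reads per 10M in mET(4) and 12.3 in WT, a difference that was not tested. HXT3 fell, by 0.83 on the log2 scale (SE 0.33, adjusted p = 0.0313), but its value was 0.06 with size factors and 0.46 with TMM factors, where it was not called, and the call was lost without any 1 of mET(4) A, B or C or WT D, E or F. HXT1 (-0.03), HXT2 (-0.76) and HXT4 (-0.37) did not pass, and all 3 were above 0 with size factors or TMM factors. Thus 1 of 5 members was called higher and 1 lower, beside 0.997% of all genes higher and 67.0% lower. With TMM factors 2 members (HXT7 and HXT1) were called higher and 0 lower, beside 5.60% and 1.08% of genes, and with size factors 2.03% of genes were called higher and 2.89% lower. Against WT replicates D to F alone HXT7 was at 0.74 (adjusted p = 0.0631) and against A to C alone at 2.25 with a call. Without mET(4) replicate B or C it was also not called (adjusted p = 0.051 and 0.0756). Against D to F alone HXT2 and HXT3 were called lower (-1.32 and -1.17), and against A to C alone neither was. HXT2 was also called lower without any 1 of WT A, B or C. The genes called higher and lower were 1.66% and 49.5% of all against A to C and 2.73% and 74.2% against D to F. RPL41A moved with this comparison. Its share in mET(4) overlapped that of WT A to C, which were also the WT libraries numbered next to mET(4). The part of RPL41A in the result was not tested.

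Mutation or deletion of the bromodomains went with higher HXT7 values too. In DMSO the HXT7 means were 30.3 T>C reads per 10M in mBD1/2 and 27.7 in ΔBD1/2, also above the 12.3 of WT. These DMSO levels were not tested. In mBD1/2 on IAA HXT7 had 21.7, 75.3 and 61.4 T>C reads per 10M, of which replicate A lay within the WT range and the others above it (log2 change of 2.08, SE 0.46, adjusted p = 0.0448). This was 1 of 5 members called higher and 0 lower, beside 0.239% of genes higher and 0.439% lower, and the call was lost without any 1 of mBD1/2 A, B or C or WT A, B or D. Against WT A to C alone the change was 2.98 and against D to F alone 1.48, both called, and in the latter HXT2 was called lower (-1.18). The genes called higher and lower were 1.87% and 6.10% against A to C and 5.01% and 31.3% against D to F. In ΔBD1/2 HXT7 had 18.8, 51.0 and 30.9 (log2 change of 1.43, SE 0.49, adjusted p = 0.0366), again with 1 library in the WT range. HXT1 rose in ΔBD1/2 as well. It had 209, 192 and 150.0 T>C reads per 10M against 52.8, 56.5, 49.0, 94.1, 80.9 and 85.8 in WT, with no overlap, a 2.63-fold difference (log2 change of 1.39, SE 0.29, adjusted p = 0.00224). HXT1 and HXT7 were the 2 of 5 members called higher in ΔBD1/2 and 0 were called lower, beside 3.81% and 19.4% of genes. The HXT7 call was lost without any 1 of ΔBD1/2 B or C or WT A or B, and against WT D to F alone, where HXT7 was at 0.83 (adjusted p = 0.0795) and HXT2 was called lower (-0.51). There 3.95% of genes were called higher and 33.6% lower. Against A to C alone all 5 members were called higher, beside 9.71% of genes, and with TMM factors 4 of 5 were, all but HXT2, beside 8.14% of genes. The HXT1 call held in each of these fits.

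Over the 17 remaining variants, HXT7 was called higher than WT on IAA in 7 and lower in 0. HXT1 was called higher in 7 and lower in 3, HXT4 higher in 3 and lower in 2, HXT3 higher in 2 and lower in 2, and HXT2 higher in 0 and lower in 1. Pooled over all gene-by-variant tests 2.57% were called higher and 18.4% lower, against 19 and 8 of the 85 tests of members. The variants were unequal in this background. Of the calls higher, mBD1 and mBD2 held 4 each, and there 16.02% and 12.45% of all genes were called higher (median gene 0.45 and 0.39). The 8 calls lower were all in ΔCPS, ΔNPS/CPS and mNPS/CPS (3, 2 and 3), where 79.5%, 82.8% and 84.4% of all genes were called lower. Against WT A to C alone 60 and 2 of these 85 tests were called, beside 14.3% and 21.6% of all tests. Against D to F alone 21 and 16 were, beside 4.21% and 25.1%, with TMM factors 25 and 0, beside 2.36% and 1.06%, and in 1 fit on all 46 groups 39 and 11, beside 7.41% and 25.4%. HXT2 moved most with the WT set, with 13 variants called higher against A to C and 5 called lower against D to F. The strongest HXT7 values were in mET(2), with 122, 102 and 95.7 T>C reads per 10M, all above WT by a wide gap (8.42-fold, log2 change of 3.07, SE 0.40, adjusted p = 1.87e-05). mCPS had 66.8, 88.2 and 134 (7.62-fold, log2 change of 2.93, SE 0.42, adjusted p = 0.000231). mET(1) had 29.7, 54.0 and 87.3 (log2 change of 2.17, SE 0.44, adjusted p = 0.0412) and was not called with size factors or TMM factors. In these 3 strains all libraries lay above all WT libraries. The same order was present in DMSO, where HXT7 T>C reads were 88.6, 67.3 and 89.8 in mET(2) and 84.3, 79.6 and 68.1 in mCPS, all above the 6 WT libraries (4.80 to 29.9 with a median of 9.26), while mET(1) (21.2, 25.0 and 75.8) overlapped them. DMSO levels of these strains were not tested. HXT7 was also called higher than WT in mBD1 (log2 1.80), mBD2 (1.90), ΔB/BID (1.84) and ΔNPS/CPS (1.34), with adjusted p of 0.00906, 0.00988, 0.00624 and 0.0194. The DMSO means of these 4 strains were 35.3, 30.4, 35.5 and 21.7 T>C reads per 10M. WT stood at 12.3 in DMSO and Bdf1/2-AID at 46.5, and these levels were not tested either. Against WT D to F alone 6 of these 7 HXT7 calls remained, and ΔNPS/CPS was at 0.75 (adjusted p = 0.0596). All these tests share the 6 WT libraries on IAA, so they are not independent of each other.

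By its mean on IAA, HXT7 T>C reads per 10M ran in the order mET(2) (107 ± 14.0, SD, n = 3), mCPS (96.4 ± 34.6), ΔET (65.0 ± 20.1), mET(1) (57.0 ± 28.9) and mBD1/2 (52.8 ± 27.8) at the upper end. Bdf1/2-AID stood at 44.2 ± 17.7. At the lower end were ΔIDRs (16.4 ± 5.43), mNPS/CPS (15.9 ± 2.11), WT (12.9 ± 8.30, n = 6) and ΔCPS (6.45 ± 3.73). The libraries of strains next to each other in this order overlapped, except those of ΔBD2 and ΔBD1. Leaving out ΔET, whose value chose the set, the mean exceeded that of all 6 WT libraries in 20 of 21 strains, ΔCPS being the exception. Of the 5014 genes 0.199% were above WT in at least as many strains, and the median gene was above in 6. In total reads HXT7 was above WT in 19 of 21 strains, as for 5.38% of genes. The T>C mean of WT D to F alone was 19.2, above ΔBD1 (19.1), ΔIDRs and mNPS/CPS as well as ΔCPS.

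**Figure D3:**
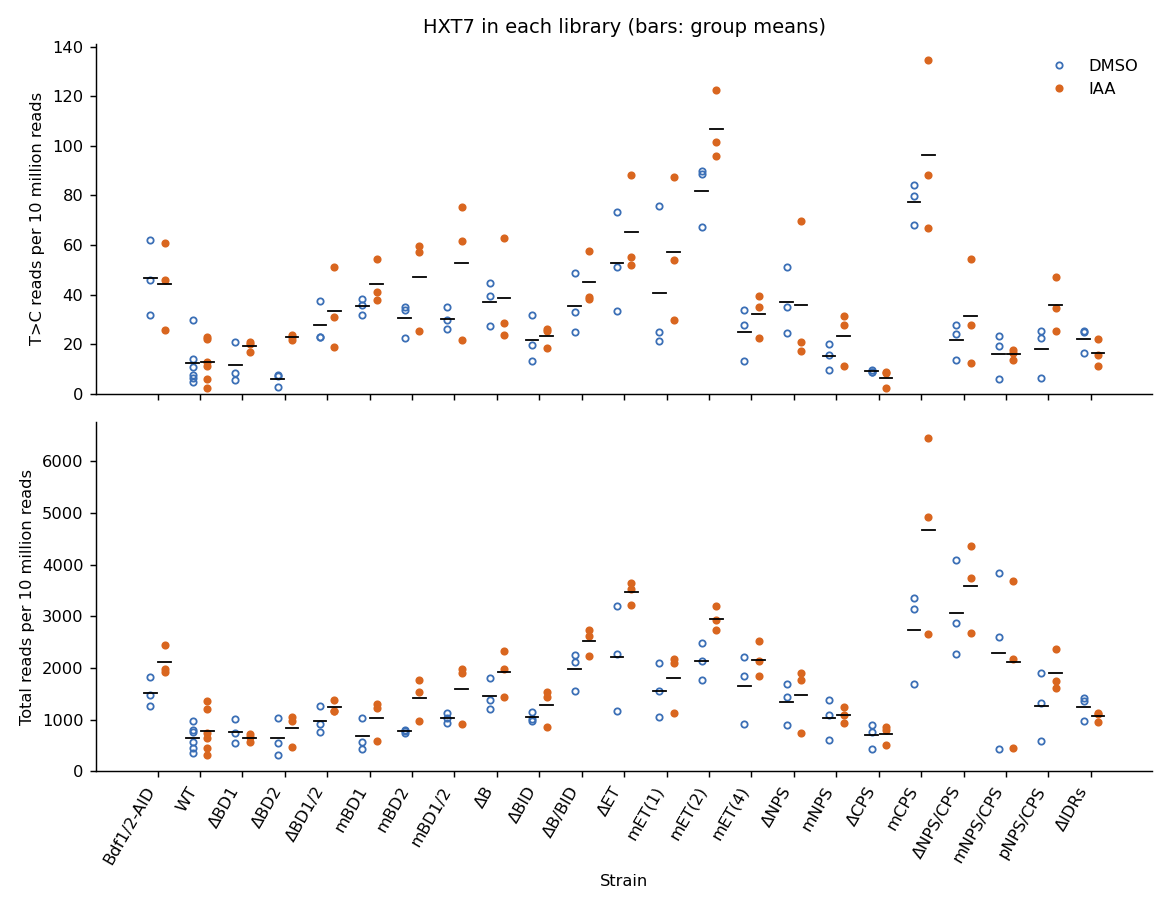
HXT7 T>C reads (upper) and total reads (lower) per 10M reads in each library by strain, with DMSO and IAA in separate colours and bars at group means. WT on IAA lies at 2.28 to 22.8 T>C reads, and mET(2) and mCPS at 66.8 to 134.

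Total HXT7 reads gave another order of strains. mCPS had 2651, 4918 and 6461 per 10M on IAA and ΔNPS/CPS 2673, 4361 and 3748, where WT had 312 to 1353 with a median of 697. ΔNPS/CPS was thus among the highest strains by total reads and in the middle by T>C reads (12.2, 54.4 and 27.8). In mNPS/CPS replicate B stood apart, with 459 against 3692 and 2184 in the others on IAA and 442.7 against 3833 and 2606 in DMSO. The same libraries were the highest of their groups in HXT3 total reads (1042, 1782 and 1094 on IAA) and the lowest in HXT4 (194, 79.9 and 194). The mean of mNPS/CPS in these genes rests on libraries that lie far apart.

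The order of strains by HXT1 differed from that by HXT7. On IAA its T>C reads per 10M were highest in ΔBD1 (252, 249 and 127) and ΔBD1/2 (209, 192 and 150.0) and lowest in mNPS/CPS (27.5, 17.6 and 24.7) and ΔNPS/CPS (26.9, 34.4 and 30.9). Against WT the log2 change was 1.58 in ΔBD1 (SE 0.31, adjusted p = 0.00226), and HXT1 also rose in mBD1, ΔB, ΔBD2, mET(2), mBD2 and ΔB/BID, by 0.97 to 1.28. It fell in mNPS/CPS by 1.58 on the log2 scale (adjusted p = 0.000794), in ΔNPS/CPS by 1.17 and in ΔCPS by 0.85, but all 3 values were above 0 with TMM factors. HXT3, the other low-affinity gene, rose in mBD2 (1.24, adjusted p = 0.00713) and mBD1 (1.05, adjusted p = 0.0149), although its mBD1 call was lost with TMM factors. It fell in ΔNPS/CPS by 1.48 and in ΔCPS by 0.89, values that were above 0 with TMM factors. HXT1 and HXT7 were called in opposite directions in ΔNPS/CPS. There HXT7 rose by 1.34 and HXT1 fell by 1.17 against a median gene of -1.99, with the TMM value of HXT1 above 0.

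Of the genes for transporters of higher affinity, HXT4 had 42.7, 43.8 and 43.4 T>C reads per 10M in mET(2) on IAA and 7.54, 7.19, 2.28, 19.1, 12.9 and 16.1 in WT, with no overlap (4.09-fold, log2 change of 2.03, SE 0.42, adjusted p = 0.00296). It also rose in mBD1 (1.79) and mBD2 (1.93), and these 3 calls held against WT D to F alone. It fell in mNPS/CPS by 2.43, where the TMM value was -0.73 without a call, and in ΔCPS by 1.55, where the TMM value was 0.08. HXT2 had the fewest calls against WT. Its log2 changes over the 17 variants ran from -1.20 to 0.98 with a median of 0.19, and its only call was in mNPS/CPS (-1.20, adjusted p = 0.011), where its TMM value was 0.66. HXT2 had 60.3, 66.8 and 59.2 T>C reads per 10M in WT A to C and 179, 153 and 179.6 in D to F, without overlap.

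**Figure D4:**
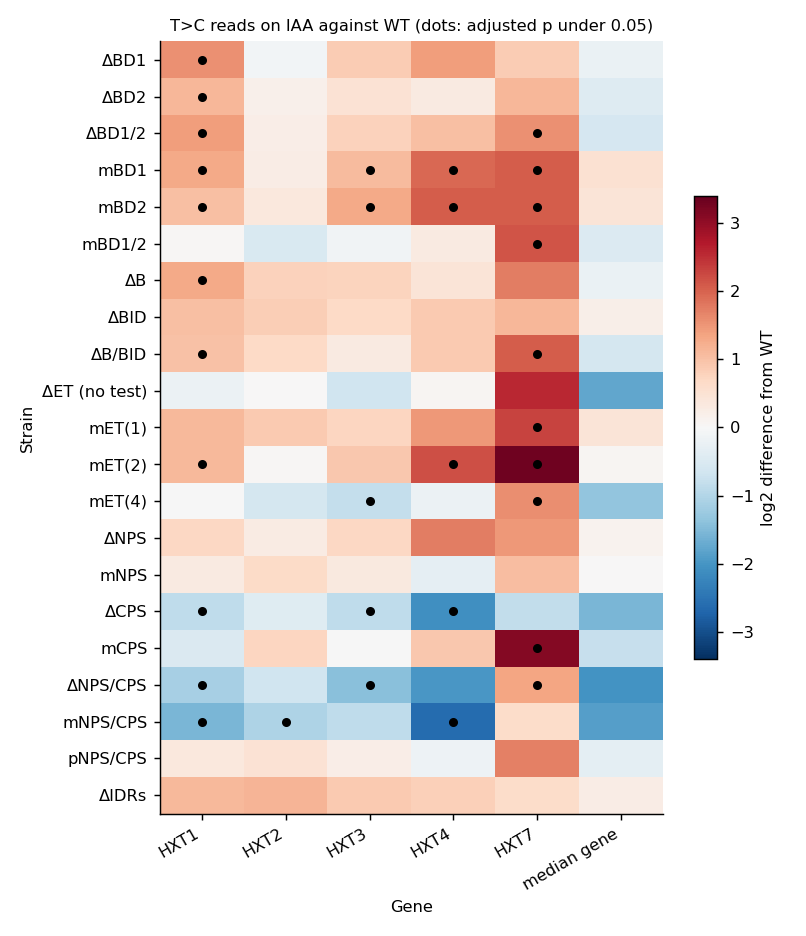
Log2 difference in T>C reads from WT on IAA for the 5 tested HXT genes (columns) in each strain (rows), as a colour scale, with dots where the edgeR adjusted p was under 0.05 and no test for ΔET. With all 6 WT libraries pooled, HXT7 is above WT in every variant but ΔCPS. HXT1 and HXT3 are below WT in ΔCPS and ΔNPS/CPS with library totals but above it there with TMM factors.

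In DMSO, where the tagged Bdf1/2 remain, T>C reads of 4 or 5 of the 5 tested members were called lower than in Bdf1/2-AID in each of 3 strains whose Bdf1 copy was altered at the phosphorylation sites, ΔNPS/CPS, mNPS/CPS and ΔCPS. Other such strains were not tested in DMSO, and in mCPS the HXT7 values given above lay above all 3 of Bdf1/2-AID. HXT1 had 10.1, 17.1 and 22.5 T>C reads per 10M in ΔNPS/CPS against 109.8, 82.2 and 95.6 in Bdf1/2-AID. It was 5.75-fold lower (log2 change of -2.52, SE 0.31, adjusted p = 1.59e-12), where the median gene was at -1.27. HXT2, HXT3 and HXT7 fell by 1.42, 1.46 and 1.14 on the log2 scale, so 4 of 5 members were called lower in ΔNPS/CPS beside 68.3% of genes, but HXT7 was at 0.11 with TMM factors and lost its call without Bdf1/2-AID B, and HXT4 was called lower without ΔNPS/CPS B. In mNPS/CPS 5 of 5 fell, by 1.32 to 1.59, beside 62.8% of genes and a median gene of -1.28. Without Bdf1/2-AID A or B or mNPS/CPS A 3 of the 5 were called, and without Bdf1/2-AID C or mNPS/CPS C 4. In ΔCPS 5 of 5 fell beside 76.3% of genes and a median gene of -1.20, but HXT2 and HXT3 were at 0.53 and 0.19 with TMM factors. HXT7 had the largest of these 5 changes, with 8.84, 8.61 and 9.49 T>C reads per 10M against 45.8, 61.9 and 31.9 and no overlap (5.28-fold lower, log2 change of -2.40, SE 0.32, adjusted p = 1.98e-12). With TMM factors, which put the median gene of these 3 comparisons near 0, 1, 0 and 1 members were called lower, namely HXT1 in ΔNPS/CPS and HXT7 in ΔCPS, and HXT2 was called higher in ΔCPS. The genes called lower were then 1.89%, 0.179% and 2.29% of all, and those called higher 2.03%, 0.419% and 5.09%. These 3 comparisons share the Bdf1/2-AID libraries, and HXT7 total reads in ΔNPS/CPS (2265, 4092 and 2867) were above those of Bdf1/2-AID in DMSO (1259, 1817 and 1479.7), the reverse of its T>C reads.

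HXT5, the gene known from slow growth, and HXT6 had lower means on IAA than WT in most variants and were high in some libraries. In WT HXT5 had 112 to 173 with a median of 135 total reads per 10M in DMSO and 40.7 to 188 with a median of 161 on IAA. HXT6 had 61.4 to 146 with a median of 103 and 72.4 to 143 with a median of 131. Of 21 strains (without ΔET) 2 had a higher mean than WT on IAA for HXT5, and likewise for HXT6, where 89.8% of genes were above WT in at least as many strains. Replicate A stood out in 3 strains. In ΔB its HXT5 value was 231 in DMSO and 492 on IAA, where replicates B and C had 35.4 to 71.6. Its HXT6 values were 195 and 376 where the others had 37.5 to 64.4. ΔBID replicate A had 239 (DMSO) and 217 (IAA) HXT5 reads, and ΔB/BID replicate A 321.3 and 117. The HXT6 values of replicate A were 207 and 169 in ΔBID and 219.7 and 119 in ΔB/BID, each the highest of its group. The libraries high in HXT5 were thus high in HXT6 in both treatments of these strains. HXT7, whose coding sequence is nearly that of HXT6, was not raised to this degree in them (1798, 1200.0 and 1382 in ΔB in DMSO).

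**Figure D5:**
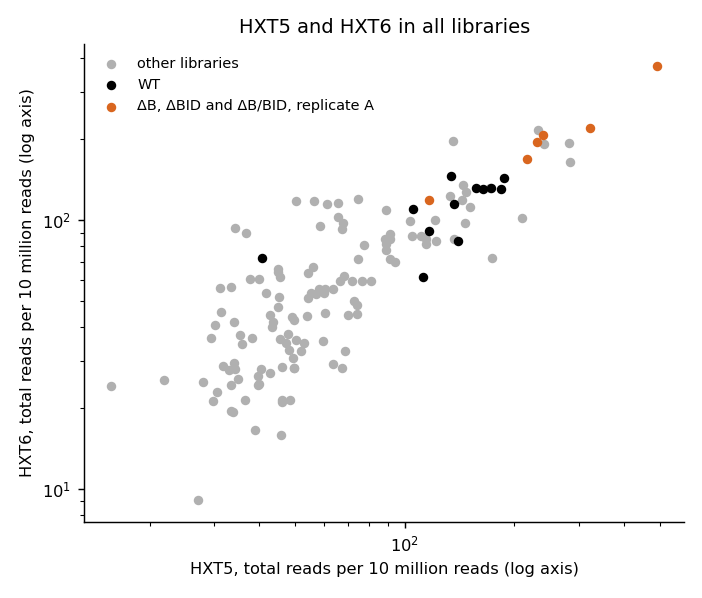
Total reads per 10M of HXT6 against HXT5 in all libraries, both on log axes, with replicate A of ΔB, ΔBID and ΔB/BID marked. Of the 6 marked libraries 5 lie above all WT libraries in both genes, with 376 HXT6 and 492 HXT5 reads in ΔB replicate A on IAA. Some unmarked libraries of mNPS and mET(4) do too, such as mET(4) replicate C on IAA with 216 HXT6 and 231 HXT5 reads.

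The genes whose pattern was most like each member were found over the 46 group means of T>C levels relative to the median gene of the library, as Pearson r. The groups share strains and depth, so r is given as a description. Those most like HXT7 were HSP12 (r = 0.89), a stress protein gene, HXK1 (0.87), hexokinase 1, and GLK1 (0.85), glucokinase. Their T>C shares were as low as 0.724%, 1.35% and 1.65%, beside 2.24% for HXT7 and 8.94% for the median gene. What such low shares do to r was not tested. Those most like HXT1 were RPS14A (0.88), a ribosomal protein gene, TKL1 (0.85), transketolase, and BAP3 (0.83), an amino acid permease. TPI1 (0.79), triose phosphate isomerase, TKL1 (0.79) and RPS14A (0.79) were nearest HXT3. SUN4 (0.88), CTS1 (0.88), an endochitinase of cell separation, and INA1 (0.87) were nearest HXT2, and CYC1 (0.78), cytochrome c, ASN1 (0.78), asparagine synthetase, and RPS2 (0.77) nearest HXT4. Among the members themselves HXT1 and HXT3 had r = 0.84, HXT2 and HXT4 0.02, and HXT1 and HXT7 0.21. The members thus did not form a single group by this measure.

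The regulators of the HXT genes were described from lists of pathway genes. Of 10 genes of the sensor and induction pathway 8 were tested, and 7 fell and 0 rose in Bdf1/2-AID on IAA (median -1.32, all genes -1.86), where 84.3% of all genes were called lower. STD1, the partner of Rgt1, fell less than the median gene (-0.52, SE 0.22, adjusted p = 0.0237), and was called higher with size factors (0.55) and TMM factors (1.15). Its call was lost with DESeq2, in 1 fit on all 46 groups and without any 1 of DMSO B or IAA A or B. YCK1, a casein kinase that acts below the sensors, fell more than it (-2.61, SE 0.41, adjusted p = 3.42e-09), with no call under TMM factors. Of 13 tested genes of the repression pathway 8 fell and 0 rose (median -1.39), among them GAL83, a subunit of the Snf1 complex (-2.58, SE 0.70, adjusted p = 0.000455), and REG1, a regulator of the Glc7 phosphatase (-1.27, SE 0.36, adjusted p = 0.000896), which was at 0.39 with TMM factors. Of all genes 84.3% fell in this fit, and neither call held with size factors or TMM factors. Of the 3 hexose kinase genes 0 were called. Of the 10 other hexose transporter genes, 1 was tested, HXT8 (-2.32, SE 0.67, adjusted p = 0.000998), which was not called with size factors or TMM factors. Of 3 tested glucose-repressed genes 2 fell, CYC1 (-0.58, SE 0.18, adjusted p = 0.00205), which was above 0 and called with size factors and TMM factors and lost its call in 1 fit on all 46 groups, and SUC2, invertase (-1.79, SE 0.80, adjusted p = 0.0318). The SUC2 call was lost with size factors, TMM factors (-0.18), DESeq2 and the replicate block and without any 1 of DMSO A or B or IAA A or B.

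In mET(4) against WT on IAA the same lists gave 7 of 8 lower and 0 higher in the induction pathway and 8 of 13 lower and 0 higher in the repression pathway, against 67.0% of all genes called lower and a median gene of -1.35. RGT2, the sensor of high glucose, changed by -2.20, SE 0.66, adjusted p = 0.00759, YCK1 by -2.16, SE 0.47, adjusted p = 0.00135, GAL83 by -1.94, SE 0.73, adjusted p = 0.0246 and ELM1, a kinase that activates Snf1, by -1.78, SE 0.43, adjusted p = 0.0025. None of these 4 calls held with size factors or TMM factors. Those of RGT2 and GAL83 were also lost with the replicate block and against WT A to C alone (-1.39 and -0.89, adjusted p = 0.144 and 0.391), and that of GAL83 without any 1 of mET(4) A or C or WT D or F. GLK1, glucokinase, rose (1.43, SE 0.45, adjusted p = 0.00985) and was called in every alternative that was run. HXK2, the main hexokinase in glucose, was called lower (-1.26, SE 0.44, adjusted p = 0.0167), but it was at -0.11 against WT A to C alone (adjusted p = 0.785), -0.11 with the replicate block, -0.28 with size factors and 0.09 with TMM factors, and its call was lost without any 1 of mET(4) A, B or C. HXT8 was called lower (-1.71, SE 0.68, adjusted p = 0.0315), but not with size factors or TMM factors, against WT D to F alone (-0.72, adjusted p = 0.345) or without any 1 of mET(4) A or B or WT B or C. Of 3 glucose-repressed genes 1 was called lower, CYC1 (-1.22, SE 0.41, adjusted p = 0.0132). This call was lost with size factors, TMM factors (0.10) and the replicate block, against WT A to C alone (-0.47, adjusted p = 0.266) and without mET(4) A. GLK1 was also among the 3 genes most like HXT7 over the groups.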

How the data were processed

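SLAM-seq counts of 46 groups (23 strains in DMSO or IAA) were used as the authors deposited them, with 1 file per library. Per the authors' methods, 3′ mRNA-seq reads were trimmed (fastp 0.23.2), mapped to yeast build R64 and counted with slamdunk 0.4.3 per open reading frame with its 3′ extension, both as all reads and as reads with at least 2 T>C conversions. The authors left out genes without T>C reads in a replicate and tested T>C counts with factors from total reads. Of 6465 genes, 6462 were named through the annotation of the build.

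Here the deposited counts were fitted with edgeR 4.0.16 (quasi-likelihood test, R 4.3.3), with total reads as library size for T>C and total reads alike, on the groups compared, for genes with a mean of at least 5 reads over all libraries. P-values were adjusted over all genes tested and called at 0.05. A level is a count divided by the library total, and log2 levels used a pseudocount of 0.5 per 10M. Fits were tested on simulated data first. Groups came from the labels, and ΔET was left out of all tests because it chose the members. Library totals make every value a share of a library, so a change of most genes moves the values of all others. Alternatives were DESeq2 1.42.0 (Wald test), median-of-ratios size factors of total reads over all libraries, TMM factors of the libraries compared, other filters, 1 fit on all groups, HXT6 and HXT7 summed, WT A to C or D to F alone, the replicate letter as a block, and each library left out in turn.

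Replicate letters were checked by the correlation of same-letter deviations from the group means. For WT in DMSO and IAA every pair was above 0.1 (0.21 to 0.50), and 3 of 6 libraries correlated best with their own letter. But these deviations also hold the difference between A to C and D to F. Within A to C and D to F the values were 0.0032 to 0.057. The letters were thus not shown to be paired, and the block is given as an alternative only. In comparisons of other strains with WT, WT D to F kept letters of their own in the block.

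The members and lists were chosen with earlier results of these data known. The text names all 7 members; BDF1 and RPL41A as checks; from each pathway list at most 4 genes past the threshold in Bdf1/2-AID (IAA against DMSO) or mET(4) against WT, those farthest from the median gene; and the 3 genes most like each tested member by Pearson r over the 46 group means.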

Additional observations from a re-analysis of the deposited data

Results flagged for a closer look

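Of 28 sets of 6 WT libraries (7 members, 2 treatments, T>C and total reads), 2 had 1 library farther from the others than Dixon's 95% limit for a group of 6, which is set on the gap as a share of the whole range. Chance alone gives about 1 in 20. HXT5 T>C reads in WT DMSO replicate B were 7.55 per 10M, and the other 5 libraries had 0 to 1.24 (gap 0.835 of the range). HXT7 T>C reads in WT DMSO replicate E were 29.9 per 10M, and the others had 4.80 to 14.2 (gap 0.627 of the range). Without this library the HXT7 change on IAA in WT was 0.50 on the log2 scale in place of 0.04.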

How the results depend on the processing

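Each count of member calls and each gene named in the report was recomputed under every alternative, with T>C reads unless total reads are named and each alternative changing a single choice. Of the counts of calls, 313 recomputed values stayed within 1.5 times the reported count, 34 were lower, 19 were higher and 0 were reversed. Of the log2 changes of single genes, 1164 kept direction and call, 132 lost the call, 41 gained one and 118 turned direction. The DESeq2 Wald test, the absence of a filter and the filter that asks each library to hold T>C reads of the gene moved no count over all members by over 1.5 times and turned no direction, where they gave a value. Of the counts per member over the 17 variants, that of HXT2 called lower went from 1 to 2 with no filter, and HXT4 was not tested under the second filter. Leaving out libraries and the block were not run for these 17. The cause of the changes listed here was not tested.

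With TMM factors of the T>C reads (or of the total reads, for total reads) the members called were 4 higher in Bdf1/2-AID on IAA, 2 higher in the interaction, 2 higher and 0 lower in mET(4) against WT, 4 higher in ΔBD1/2 against WT, 1 lower in ΔNPS/CPS against Bdf1/2-AID, 0 lower in mNPS/CPS against Bdf1/2-AID, 1 higher and 1 lower in ΔCPS against Bdf1/2-AID and 0 lower in 17 other variants against WT. There the log2 changes that turned direction were, in Bdf1/2-AID on IAA HXT1 1.49, HXT2 1.44, HXT4 0.79, HXT7 1.51, STD1 1.15, REG1 0.39 and CYC1 1.09, in WT on IAA HXT2 0.031, HXT3 0.35 and HXT4 0.31, in the interaction HXT1 1.08, HXT4 0.51 and HXT7 1.18, in mET(4) against WT HXT1 1.25, HXT2 0.56, HXT3 0.46, HXT4 0.92, HXK2 0.090 and CYC1 0.10, in mBD1/2 against WT HXT3 0.37, in ΔNPS/CPS against Bdf1/2-AID HXT4 0.23 and HXT7 0.11, in ΔCPS against Bdf1/2-AID HXT2 0.53 and HXT3 0.19, in ΔCPS against WT HXT1 0.75, HXT3 0.69 and HXT4 0.076, in ΔNPS/CPS against WT HXT1 0.64 and HXT3 0.34 and in mNPS/CPS against WT HXT1 0.32 and HXT2 0.66. With size factors the members called were 4 higher in Bdf1/2-AID on IAA and 0 lower in mET(4) against WT. There the log2 changes that turned direction were, in Bdf1/2-AID on IAA HXT1 0.89, HXT2 0.85, HXT4 0.19, HXT7 0.92, STD1 0.55 and CYC1 0.49, in WT on IAA HXT3 0.058 and HXT4 0.022, in the interaction HXT1 0.75, HXT4 0.16 and HXT7 0.86, in mET(4) against WT HXT1 0.86, HXT2 0.19, HXT3 0.063 and HXT4 0.53 and in mBD1/2 against WT HXT2 0.0089 and HXT3 0.46.

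In 1 fit on all 46 groups the members called were 2 lower in mET(4) against WT and 39 higher in 17 other variants against WT. Of all tests 77.9% and 7.41% were called in these directions. With WT A to C alone the members called were 0 lower in mET(4) against WT, 5 higher in ΔBD1/2 against WT and 60 higher and 2 lower in 17 other variants against WT. There the log2 changes that turned direction were, in WT on IAA HXT7 -0.41, in the interaction HXT7 0.28, in mET(4) against WT HXT1 0.36, HXT2 0.13 and HXT4 0.53 and in mBD1/2 against WT HXT2 0.28 and HXT3 0.31. With WT D to F alone the members called were 0 higher and 2 lower in mET(4) against WT, 1 lower in mBD1/2 against WT, 1 higher and 1 lower in ΔBD1/2 against WT and 16 lower in 17 other variants against WT. There the log2 changes that turned direction were, in WT on IAA HXT3 0.014 and HXT4 0.39, in the interaction HXT2 -0.020, in mBD1/2 against WT HXT1 -0.21 and HXT4 -0.50 and in ΔBD1/2 against WT HXT2 -0.51. With HXT6 and HXT7 summed the log2 changes that turned direction were, in WT on IAA HXT7 -0.17 and in the interaction HXT7 0.019.

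With the replicate letter as a block the members called were 1 lower in WT on IAA, 0 lower in mET(4) against WT, 5 higher in ΔBD1/2 against WT and 3 higher in total reads of Bdf1/2-AID on IAA. There the log2 changes that turned direction were, in WT on IAA HXT3 0.0079, in mET(4) against WT HXT1 0.36, HXT2 0.13 and HXT4 0.55 and in mBD1/2 against WT HXT2 0.23 and HXT3 0.29. The block changed no other count of calls beyond 1.5 times the reported one. The WT treatments were not shown to be paired, with same-letter correlations of 0.0032 to 0.057 within A to C and D to F. In the other comparisons the letters only name the libraries. The same-letter correlations there ran from -0.056 to 0.080, and each library correlated best with its own letter for 3 of 3 letters in mET(4) and for 2 or fewer of 3 in the others.

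Leaving out each library in turn, the members called were 0 to 1 higher in mET(4) against WT, 0 to 2 lower in mET(4) against WT, 0 to 1 higher in mBD1/2 against WT, 1 to 2 higher in ΔBD1/2 against WT, 3 to 5 lower in mNPS/CPS against Bdf1/2-AID and 3 to 6 higher in total reads of Bdf1/2-AID on IAA. The log2 changes that turned direction for some library ran, in Bdf1/2-AID on IAA HXT3 -0.042 to 0.21 and HXT7 -0.50 to 0.17, in WT on IAA HXT1 -0.059 to 0.21, HXT3 -0.16 to 0.23, HXT4 -0.26 to 0.21 and HXT7 -0.22 to 0.50, in the interaction HXT2 -0.055 to 0.29, HXT3 -0.17 to 0.24 and HXT7 -0.59 to 0.15, in mET(4) against WT HXT1 -0.19 to 0.10, in mBD1/2 against WT HXT1 -0.11 to 0.43, HXT3 -0.27 to 0.083 and HXT4 -0.12 to 0.34 and in ΔBD1/2 against WT HXT2 -0.075 to 0.23. Libraries that decide the call of a member or pathway gene against WT or in Bdf1/2-AID are named in the report, and where a group was left with 2 libraries the shared spread of the fit was used.

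Depth limits the newly made RNA of HXT5 and HXT6, with 86 and 168 T>C reads in all, and widens the intervals of HXT4 and HXT7, the lowest of the tested members in WT. Without a spike-in in the files used here, a change shared by most genes and a change of the library total cannot be told apart, and directions hold for the scaling they are given with.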
